A study of Mus musculus with 24 samples.

Results

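The comparison described here set the cerebral cortex of APP/PS1 mice against that of wild-type (WT) mice at 3 months of age. It compared 6 of the 24 libraries of the study, 3 per genotype, over all miRNA names. In the main fit the spread between mice was estimated from all 24 libraries. Of 1927 names listed, 433 had enough counts among the 24 libraries to be tested, and 401 had enough when the 6 libraries were taken alone. APP/PS1 mice are a transgenic model of Alzheimer disease that expresses mutant amyloid precursor protein and mutant presenilin 1. The labels name neither the alleles nor the promoters of the transgenes. All mice were of strain C57BL/6, and the WT mice carried no listed transgene. Each age group held 2 female mice and 1 male, with the sex of a single library not given. The whole study covered both genotypes at 1, 3, 6 and 9 months, in groups of 3 mice. Cerebral cortex is the tissue in the series title, while the label of the libraries is brain.

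miRNAs are short RNAs that guide Argonaute proteins to messenger RNAs and lower their output. A mature miRNA is cut from the 5p or the 3p arm of a hairpin, and its seed, the bases near its 5′ end, sets most of its targets. In cortex, neuronal miRNAs such as miR-124-3p and miR-9-5p make up much of the small RNA, and members of the miR-29, miR-15/16, miR-101 and miR-103/107 families have been reported to bind the messages of App or of Bace1, the protease that starts amyloid β production.

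Several of the miRNAs described here belong to families whose members could be compared by sequence. The mature forms come from RefSeq (GRCm38.p6), are written 5′ to 3′, and have the seed (bases 2 to 8) in capitals. miR-376a-3p, at chr12:109723824-109723844 on the plus strand, is shown with its neighbour miR-376b-3p (chr12:109723508-109723528, plus strand) because the family members gave different values.
miR-376a-3p: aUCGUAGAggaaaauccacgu
miR-376b-3p: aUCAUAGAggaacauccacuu
Counting from 1 at the 5′ end, with the base of miR-376a-3p first, the substitutions are G4A, A13C and G20U, of which 1 lies in the seed. Neither hairpin lies within an annotated protein-coding or long noncoding gene of those searched.

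miR-103-3p comes from introns of Pank2 (chr2:131288103-131288125) and Pank3 (chr11:35782447-35782469), and miR-107-3p from an intron of Pank1 (chr19:34820700-34820722, minus strand). They are shown because they share a seed and differ only at G22C, with the base of miR-103-3p first.
miR-103-3p: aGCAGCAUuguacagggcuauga
miR-107-3p: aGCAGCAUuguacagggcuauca
miR-15b-5p and 1 copy of miR-16-5p lie in an intron of Smc4 (chr3:69009775-69009796 and chr3:69009918-69009939, plus strand), and miR-195a-5p lies at chr11:70235062-70235082. The seed is the same in all of them.
miR-15b-5p: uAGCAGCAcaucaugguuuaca
miR-16-5p: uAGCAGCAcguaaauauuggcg
miR-195a-5p: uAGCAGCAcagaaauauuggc
The 3 members of the miR-29 family also share a seed, and miR-29c-3p differs from miR-29a-3p only at U10C.
miR-29a-3p: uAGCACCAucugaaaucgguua
miR-29b-3p: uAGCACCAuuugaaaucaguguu
miR-29c-3p: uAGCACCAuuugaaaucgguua
The sequence of miR-101c is contained whole in that of miR-101a-3p, and miR-101b-3p is a further member of the family.
miR-101a-3p: uACAGUACugugauaacugaa
miR-101c: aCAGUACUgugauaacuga
miR-101b-3p: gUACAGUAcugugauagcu

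The 6 libraries held between 3644883 and 6575838 counts, with 639 to 705 names counted in each. By counts, miR-124-3p came first, with 203162, 185382 and 222886 CPM (the share of a library's counts, scaled to a fixed total) in the APP/PS1 libraries and 188574, 209820 and 183503 CPM in the WT libraries. miR-26a-5p, miR-99a-5p, miR-125b-5p and miR-9-5p came next, and these 5 held 47.7% to 49.6% of the counts of a library. The log2 fold changes of the 5 lay between -0.10 (miR-26a-5p) and 0.07 (miR-124-3p), and the libraries of both genotypes overlapped for each. Neuronal markers were thus abundant. Counts of oligodendrocyte markers were near 0, with 0 for miR-219a-5p and 0 to 3 per library for miR-219a-2-3p. The 5 miR-200 family members listed as epithelial markers were at 0 in all 6 libraries. Names of lists not tied to a cell type were near 0 as well, among them miR-93-5p (0 counts) and miR-25-3p (0 to 1 counts). Whether such low counts come from the tissue or from the counting was not tested.

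The libraries did not separate by genotype on their main axis. The first axis of a principal component analysis held 38.6% of the variance among the 6 libraries, and both genotypes were spread along it, with APP/PS1 replicate 1 at -2.63, replicate 2 at 3.63 and replicate 3 at -0.07, and WT replicate 1 at -0.41, replicate 2 at -5.0 and replicate 3 at 4.48. APP/PS1 replicate 1 and WT replicate 2 lay on one side, and APP/PS1 replicate 2 and WT replicate 3 on the other. The largest weights on this axis, chosen after their values were seen, included 9 names that lie in introns of Htr2c, the serotonin 2C receptor gene on chromosome X (chrX:146962513-147197277). All 9 were among the 20 highest weights, all were lowest in APP/PS1 replicate 1 or WT replicate 2, and all were highest in APP/PS1 replicate 2 or WT replicate 3. miR-1264-3p, the most counted of them, was at 158, 352 and 253 CPM in APP/PS1 and at 283, 137 and 467 CPM in WT. Its range within each genotype was wider than the difference between them, a log2 fold change of -0.22 (SE 0.54).

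**Figure D1:**
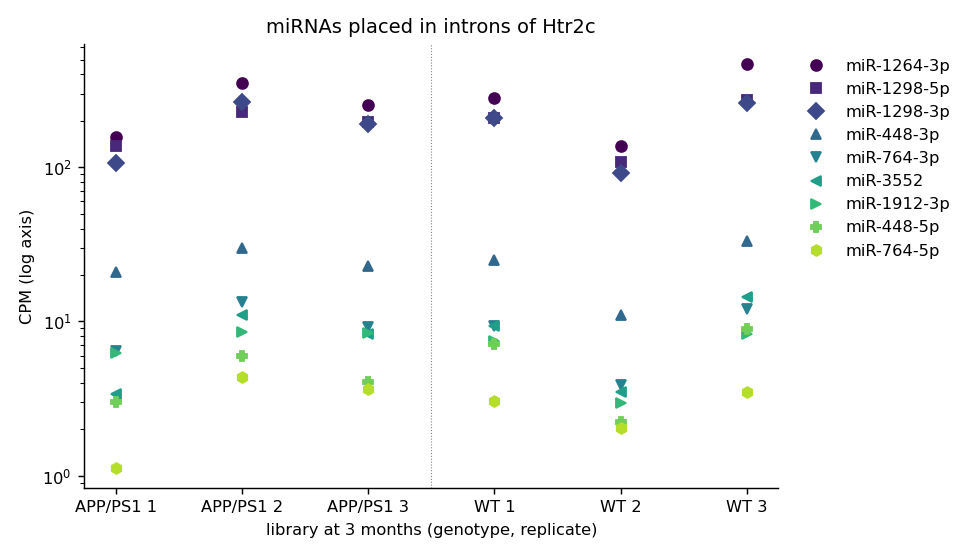
CPM (log axis) of the 9 tested miRNAs placed in introns of Htr2c, in the 3 APP/PS1 and the 3 WT libraries of 3 months. Each marker is 1 miRNA in 1 library. The markers move together from library to library and are low in APP/PS1 replicate 1 and WT replicate 2, and neither genotype stands above the other.

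The Htr2c names summed to 443.9, 919.0 and 694.8 CPM in APP/PS1 and to 763.0, 363.6 and 1083 CPM in WT. miR-7a-5p, a neuronal miRNA abundant in hypothalamus and pituitary, was likewise lowest in WT replicate 2 and APP/PS1 replicate 1 and highest in APP/PS1 replicate 2 and WT replicate 3, with 4824, 8613 and 5224 CPM in APP/PS1 and 6132, 3137 and 7041 CPM in WT. At the other end of the axis stood miR-802-5p, miR-10b-5p, miR-10a-5p, miR-145a-5p and miR-195a-5p. miR-10b-5p, a miRNA of the Hox clusters, was at 145, 69.3 and 86.4 CPM in APP/PS1 and at 190, 140 and 55.8 CPM in WT. What this axis reflects was not tested, and the sex of single libraries is not given.

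Against this background, no miRNA passed the test of genotype at 3 months. With edgeR's quasi-likelihood test and Benjamini-Hochberg adjustment over the 433 names, 0 passed at 0.05 (0% of names), and DESeq2 also gave 0. At an unadjusted p under 0.05 edgeR gave 11 names, 2.54% of those tested, of which 5 were higher (1.15%) and 6 lower (1.39%) in APP/PS1. DESeq2 gave 7 at that level. For 31 names (7.16%) the libraries of both genotypes did not overlap, with 18 higher (4.16%) and 13 lower (3%) in APP/PS1. The p-values and standard errors rest on the spread between mice within all 8 groups of the 24 libraries, not on the 3-month mice alone. An exact permutation of 3 against 3 libraries for a single name could not go below 0.10.

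The data bounded most differences closely. The 95% interval of the fold change lay within 2-fold in either direction for 336 of the 433 names (77.6%) and within 1.5-fold for 222 (51.3%). Precision followed the level. Of the 70 names with a mean of at least 1000 CPM, 69 had intervals within 2-fold and 66 within 1.5-fold, while of the 151 names under 10 CPM only 68 and 10 did. The median log2 fold change was 0.02, with 5% of names under -0.48 and 5% above 0.28, and 234 names lay above 0 and 199 below. Among names with a mean of at least 10 CPM, the values ran from -1.30 for miR-10a-5p to 0.99 for miR-376a-3p. The lowest value of all, for miR-6481, rested on 1 count in the 6 libraries.

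**Figure D2:**
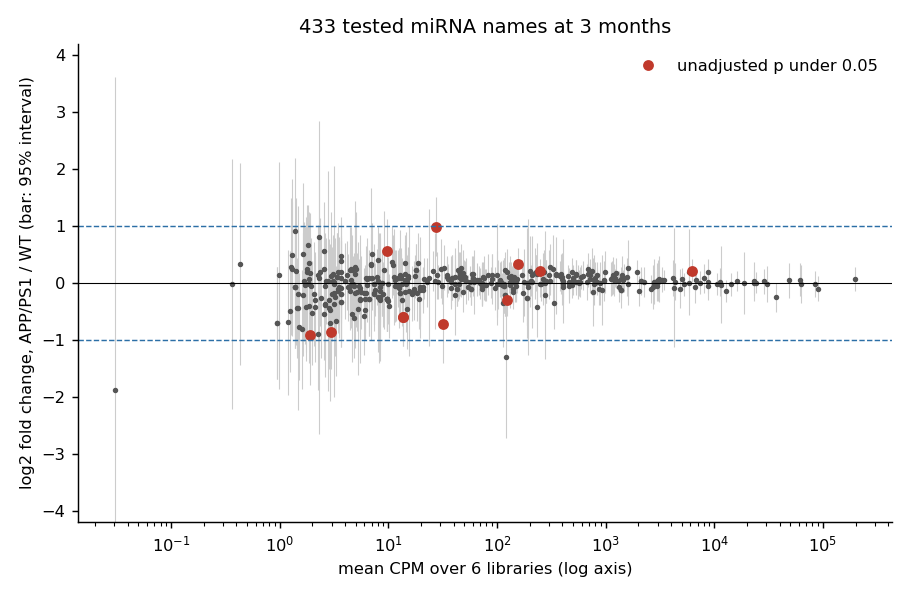
Log2 fold change of APP/PS1 against WT at 3 months (vertical axis, with 95% intervals as grey bars) over the mean CPM of the 6 libraries (log axis) for the 433 tested names. Dashed lines mark 2-fold in either direction, and red points are the 11 names with an unadjusted p under 0.05. The interval of miR-6481 runs past the lower edge. The intervals narrow as the level rises, and most names of at least 1000 CPM lie close to 0.

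miR-376a-3p had the smallest p. It belongs to a neuronal miRNA family of the imprinted Dlk1-Dio3 locus on chromosome 12, which is expressed from the maternal chromosome. The APP/PS1 libraries held 29.8, 41.9 and 37.1 CPM (159, 280 and 184 counts), and the WT libraries 18.5, 17.3 and 19.0 CPM (67, 94 and 87 counts). All 3 APP/PS1 libraries lay above all 3 WT libraries, and the WT libraries lay close together. The log2 fold change was 0.99 (SE 0.25, 95% interval 0.47 to 1.51, 1.99-fold). Its unadjusted p was 0.000722 and its adjusted p 0.313 by edgeR's quasi-likelihood test across all names. Without the filter on low counts this miRNA passed, with an adjusted p of 0.00614 over 1125 names by the same edgeR test, in a fit whose prior degrees of freedom were infinite against 4.64 with the filter. DESeq2 gave an adjusted p of 0.0714, and edgeR on the 6 libraries alone gave 0.0816.

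The other arm of the hairpin stayed near 0. miR-376a-5p was at 108, 108 and 114 CPM in APP/PS1 and at 112, 110 and 114 CPM in WT, a log2 fold change of -0.03. The libraries of both genotypes overlapped. The ratio of the 3p to the 5p arm was therefore 0.276, 0.388 and 0.326 in APP/PS1 against 0.165, 0.158 and 0.166 in WT. The difference in log2 fold change between the arms, 1.02, was the 2nd largest of the 123 hairpins with both arms tested, where the median size was 0.13, and the largest of the 70 with both arms at 10 CPM or more. These ranks describe a pair picked out by its p-value.

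The relatives of miR-376a-3p gave smaller values. miR-376b-3p, whose seed carries the substitution G4A, was at 1135, 1126 and 1247 CPM in APP/PS1 and at 1160, 1053 and 1098 CPM in WT, a log2 fold change of 0.08. miR-376c-3p was at 46.7, 46.4 and 47.3 CPM in APP/PS1 and at 40.6, 42.4 and 37.3 CPM in WT. Its libraries did not overlap, but its log2 fold change of 0.22 had an unadjusted p of 0.39 in the edgeR fit across all genes and was 0.14 without WT replicate 3. miR-376b-5p and miR-376c-5p were at -0.04 and -0.13. Of the 6 members 3 were above 0 and 3 below, with a median of 0.03 beside 0.02 for all names.

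The level of miR-376a-3p was also read at the other ages. APP/PS1 held 20.2 ± 4.07 CPM at 1 month, 36.3 ± 6.07 at 3 months, 30.7 ± 13.2 at 6 months and 30.1 ± 4.77 at 9 months (mean ± SD, n = 3). WT held 29.7 ± 3.95, 18.3 ± 0.836, 28.1 ± 7.94 and 20.9 ± 3.19 CPM at the same ages. The log2 fold change of genotype was -0.56 at 1 month, where WT was higher in every library, 0.13 at 6 months and 0.54 at 9 months. The difference at 3 months exceeded the mean of those at the other ages by 0.96 on the log2 scale (SE 0.29). Its adjusted p was 0.795 by edgeR's quasi-likelihood test across all names. That test of age gave 0 names at an adjusted p under 0.05 (0%) and 14 at an unadjusted p under 0.05 (3.23%).

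**Figure D3:**
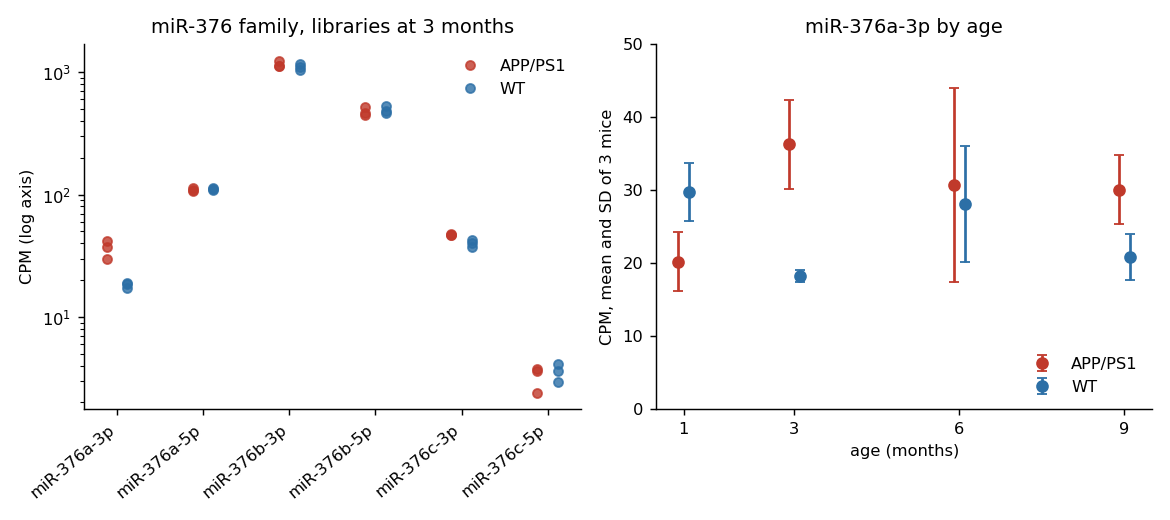
Left, CPM (log axis) of the 6 members of the miR-376 family in the 3 APP/PS1 (red) and 3 WT (blue) libraries of 3 months, 1 point per library. Right, CPM of miR-376a-3p by age as mean and SD of 3 mice. Only miR-376a-3p and miR-376c-3p have libraries that do not overlap, and at 1 month the order of the genotypes for miR-376a-3p is the opposite of that at 3 months.

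Across all 433 names the genotype differences at 3 months were weakly correlated with those at other ages. The correlation of log2 fold changes across names, which share libraries within each age and are not independent, was Pearson's r = -0.08 with 1 month, 0.19 with 6 months and -0.19 with 9 months, with Spearman's rho of -0.07, 0.13 and 0.04. Next to miR-376a-3p in the test of age stood miR-379-5p, the first miRNA of its cluster at the same locus, with a log2 fold change of 0.09 at 3 months against -0.25, -0.23 and -0.12 at 1, 6 and 9 months. That difference of 0.29 (SE 0.09) had an adjusted p of 0.795 by edgeR's quasi-likelihood test.

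Among the other names higher in APP/PS1, miR-203-3p, a miRNA best known from skin, was at 181, 174 and 171 CPM in APP/PS1 and at 129, 152 and 138 CPM in WT. The groups did not overlap, and the log2 fold change was 0.33 (SE 0.14, unadjusted p 0.0281 in edgeR). miR-103-3p, which shares its seed with miR-107-3p and regulates metabolism, was at 6582, 7119 and 6330 CPM against 5992, 5620 and 5615 CPM. It was higher in every APP/PS1 library, by 0.22 on the log2 scale (SE 0.10), a value that was 0.13 without APP/PS1 replicate 2. Its near twin miR-107-3p was at 377, 389 and 327 CPM against 351, 318 and 317 CPM, a log2 fold change of 0.15 (SE 0.11) with overlapping groups, and of 0.07 without APP/PS1 replicate 2. In that fit the median of all names was lower too, at -0.03 against 0.02. Reads that end before the base that sets miR-103-3p apart from miR-107-3p cannot be told apart between the pair.

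miR-666-3p and miR-329-3p, both of the Dlk1-Dio3 locus, completed the 5 higher names with an unadjusted p under 0.05. miR-666-3p was at 11.6, 11.8 and 11.5 CPM in APP/PS1 and at 8.28, 6.45 and 8.93 CPM in WT, and its log2 fold change was 0.57. The APP/PS1 libraries all lay above the WT libraries, and the 5p arm of that hairpin, miR-666-5p, was at 0.20. miR-329-3p was at 255, 297 and 254 CPM in APP/PS1 and at 240, 223 and 234 CPM in WT, a log2 fold change of 0.21 that dropped to 0.10 without APP/PS1 replicate 2, its highest library. The next 7 names by p were miR-543-5p (0.51), miR-29b-3p (0.19), miR-7013-5p (0.68), miR-409-3p (0.25), miR-136-3p (0.20), miR-382-3p (0.20) and miR-135a-1-3p (0.80), none with an unadjusted p under 0.05. All 7 values moved both ways with 1 library left out, with miR-543-5p at 0.36 without WT replicate 1 and at 0.56 without WT replicate 2. Without APP/PS1 replicate 1 miR-409-3p rose to 0.32 and miR-135a-1-3p to 1.00, and without WT replicate 1 miR-7013-5p rose to 0.90. The lowest values were 0.07 for miR-409-3p, 0.11 for miR-29b-3p and 0.44 for miR-135a-1-3p, all without APP/PS1 replicate 2. Without WT replicate 3 they were 0.30 for miR-7013-5p and 0.11 for miR-136-3p, and without WT replicate 2 miR-382-3p was at 0.09. Of the 7, miR-7013-5p and miR-135a-1-3p had means under 3 CPM in both genotypes.

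**Figure D4:**
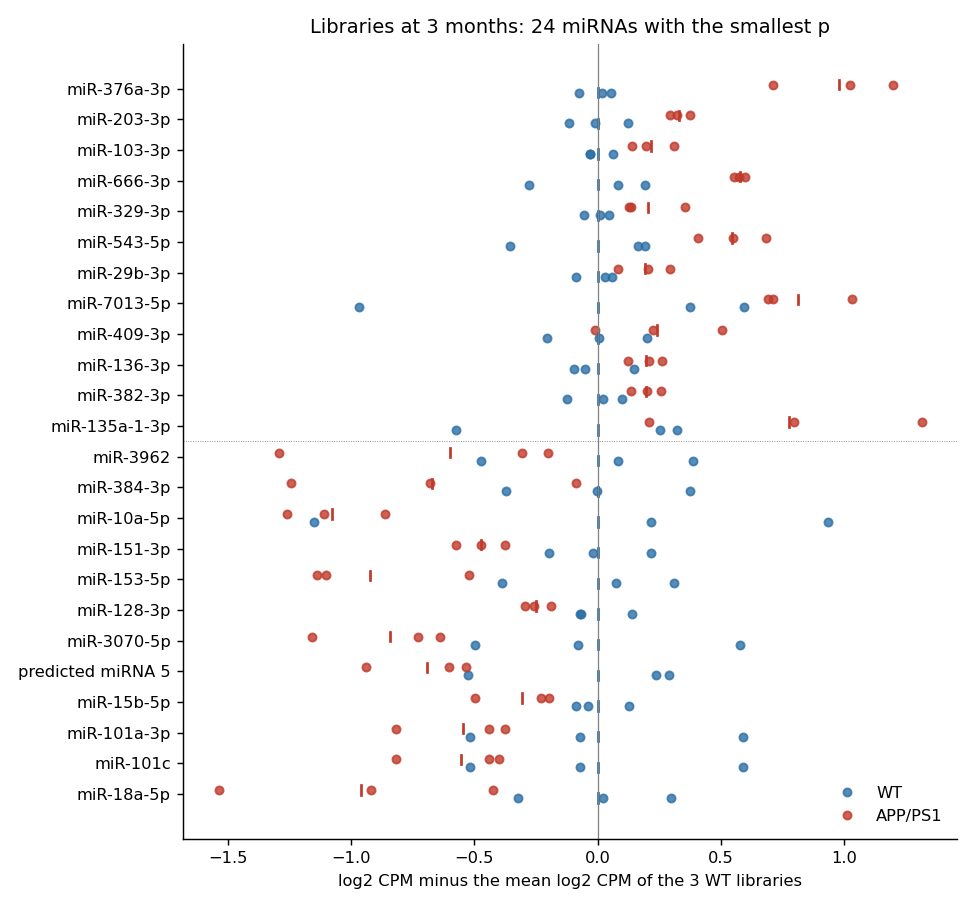
Log2 CPM of each library less the mean log2 CPM of the 3 WT libraries, for the 12 names with the smallest p among those higher in APP/PS1 (above the dotted line) and the 12 among those lower (below it). Blue points are WT and red points APP/PS1 libraries of 3 months, and short bars are group means. miR-376a-3p has the widest gap between the groups of the higher names, and miR-10a-5p has 1 WT library among the APP/PS1 libraries.

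Of the lower names, miR-18a-5p, a member of the proliferation-linked miR-17-92 cluster encoded in Mir17hg, had the smallest p. It was at 1.31, 2.84 and 2.01 CPM in APP/PS1 (7, 19 and 10 counts) and at 4.69, 3.87 and 3.05 CPM in WT (17, 21 and 14 counts). The groups did not overlap, but the margin between the nearest libraries was a few counts. Its log2 fold change was -0.87 (SE 0.31, unadjusted p 0.0102 in edgeR). Of 8 tested members of this cluster and its paralogues 4 were above 0 and 4 below, with a median of -0.01, and miR-19b-3p was at 0.22.

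miR-101a-3p and miR-101c were counted almost alike, at 11.8, 8.83 and 11.5 CPM for miR-101c in APP/PS1 and 23.5, 10.9 and 14.8 CPM in WT. Because the shorter sequence is contained in the longer, the pair is 1 measurement rather than 2. The groups overlapped, and the log2 fold change of -0.60 (-0.59 for miR-101a-3p) moved to -0.27 without WT replicate 1. miR-101b-3p, a member counted far more often, was at 0.08.

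miR-15b-5p was at 120, 97.1 and 117 CPM in APP/PS1 and at 129, 150 and 133 CPM in WT, with no overlap. The log2 fold change was -0.31 (SE 0.13). miR-16-5p and miR-195a-5p, with the same seed, were at -0.10 and -0.12 with overlapping groups. Predicted miRNA number 5, whose counts over 24 libraries followed those of miR-30e-5p most closely (r = 0.707), was at 26.7, 25.4 and 20.1 CPM in APP/PS1 and at 47.2, 45.5 and 26.8 CPM in WT. The lowest WT library lay just above the highest APP/PS1 library, and the log2 fold change was -0.72. miR-3070-5p, the last with an unadjusted p under 0.05, was at -0.91 with at most 3.49 CPM in a library.

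miR-128-3p, an abundant neuronal miRNA encoded in introns of R3hdm1 and Arpp21, was lower in every APP/PS1 library, at 35096, 32617 and 33435 CPM against 38051, 44111 and 38213 CPM. Its log2 fold change was -0.25 (SE 0.12, unadjusted p 0.0556 in edgeR). The same miRNA was at -0.40, -0.21 and -0.45 at 1, 6 and 9 months, with an adjusted p of 0.0401 at 9 months by edgeR's quasi-likelihood test, and its value at 3 months differed from the mean of those by 0.10 (SE 0.14). miR-29b-3p gave the opposite sign at all 4 ages. It was at 1923, 2224 and 2092 CPM in APP/PS1 and at 1708, 1856 and 1888 CPM in WT at 3 months, a log2 fold change of 0.19 (SE 0.10). At 1, 6 and 9 months the values were 0.59, 0.19 and 0.30, with an adjusted p of 0.00175 at 1 month by edgeR's quasi-likelihood test.

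miR-10a-5p, a miRNA of the Hox clusters, was the name with the largest fold change among those of at least 10 CPM. It was at 80.7, 61.2 and 67.9 CPM in APP/PS1 and at 280, 170 and 66.0 CPM in WT. WT replicate 3 lay among the APP/PS1 libraries, and the other WT libraries lay above all of them. The log2 fold change of -1.30 (SE 0.69) had an unadjusted p of 0.0732 in edgeR, and it moved to -0.77 without WT replicate 1 and to -1.73 without WT replicate 3. Without the filter on low counts its adjusted p by the same test was 1.76e-10. That fit had infinite prior degrees of freedom, so the spread used for miR-10a-5p came from the trend and not from its own libraries. It also carried the third largest negative weight on the first library axis. miR-153-5p (-0.90), miR-151-3p (-0.48), miR-384-3p (-0.61) and miR-3962 (-0.57) filled the list of 12 lower names, and none had more than 10 CPM in a library. Without APP/PS1 replicate 2 miR-384-3p was at -0.99 and miR-3962 at -0.32, and without APP/PS1 replicate 3 miR-384-3p was at -0.40. The other arm of miR-153-5p, miR-153-3p, was counted far more often and was at 0.03.

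The lists of miRNAs tied to Alzheimer disease had medians close to 0, while some of their members were not bounded closely. Of 13 miRNAs often studied in this disease 8 were above 0 and 5 below, with a median log2 fold change of 0.02, beside 0.02 for all names (both rounded to 2 decimals), and 0 had an unadjusted p under 0.05 or groups without overlap (background 2.54% and 7.16%). Their values ran from -0.19 for miR-155-5p, an inflammatory miRNA (95% interval -1.02 to 0.63), to 0.15 for miR-206-3p (-1.14 to 1.44). Both were at low levels, and both intervals reached past 2-fold. miR-132-3p, an activity-regulated miRNA, was at 2888, 2464 and 2668 CPM in APP/PS1 and at 2444, 3385 and 2555 CPM in WT. The groups overlapped, and the log2 fold change was -0.06 (SE 0.19). miR-212-3p, from the same cluster, was at 0.02, and miR-34a-5p, a target of p53, at 0.02 (SE 0.38, 95% interval -0.78 to 0.82). miR-146a-5p, a negative regulator of innate immune signalling, was at -0.15, and miR-142a-5p, a miRNA of blood cells, at 0.05. miR-342-3p was at -0.08 (SE 0.50, 95% interval -1.12 to 0.97), and miR-125b-5p and miR-9-5p at -0.01 and 0.06.

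Of 19 tested miRNAs reported to target App or Bace1, 11 were above 0 and 8 below, with a median of 0.01 that was -0.01 under DESeq2-style size factors. At an unadjusted p under 0.05 there were 1 higher, miR-103-3p, and 2 lower, miR-101a-3p and miR-15b-5p, against 1.15% and 1.39% of all names. In the miR-29 family 4 of 5 tested members were above 0, with a median of 0.13. miR-29a-3p was at -0.08, miR-29c-3p at 0.04, miR-29c-5p at 0.13 and miR-29b-2-5p at 0.14, and 1 of the 5, miR-29b-3p, had groups without overlap, against 7.16% of all names. The family median was 0.02 without APP/PS1 replicate 1. Of the 9 let-7 members 5 were above 0 and 4 below, from -0.67 for let-7d-5p, at no more than 5.52 CPM, to 0.08 for miR-98-5p. The let-7 median of 0.01 was -0.01 under DESeq2-style size factors.

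No cell type marker list held a name that passed the test, since 0 of all 433 names passed by edgeR or by DESeq2. Of 15 neuron-enriched names 12 were above 0, with a median of 0.07, from -0.25 for miR-128-3p to 0.39 for miR-129-2-3p, and 0 had an unadjusted p under 0.05. Without APP/PS1 replicate 1 the neuronal median was 0.0036. The 6 activity-regulated names had a median of 0.03, with miR-134-5p highest at 0.15. Of 8 immune and microglial names 4 were above 0 and 4 below, with a median of 0.02. miR-150-5p, a lymphocyte miRNA, was at 544, 582 and 560 CPM in APP/PS1 and at 505, 490 and 517 CPM in WT, which did not overlap, and its log2 fold change was 0.16 (SE 0.12), or 0.09 without WT replicate 2. miR-338-3p, the tested oligodendrocyte marker, was at -0.08. In whole tissue, fewer cells of a type and less of the RNA per cell cannot be told apart.

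The summed levels of markers of blood, vessels and neighbouring tissues overlapped between genotypes. The erythrocyte names, 7 names in 5 distinct measurements, summed to between 1138 and 1740 CPM in APP/PS1 and between 1242 and 1405 CPM in WT. Counts shared by the miR-486a and miR-486b names enter these sums more than once, so the sums are not the level of the erythrocyte names. miR-451a, the most specific of them, was at 482, 316 and 288 CPM in APP/PS1 and 285, 408 and 297 CPM in WT. The group ranges overlapped, and its log2 fold change of 0.13 became -0.16 without APP/PS1 replicate 1. miR-486a-3p and miR-486b-3p, which share all their counts, were lower in every APP/PS1 library, at -0.70, with at most 1.31 CPM in a library. Of 4 tested vessel markers 1 was above 0 and 3 below, with a median of -0.08. miR-126a-3p, of endothelium, was at 0.08, and the other arm of its hairpin, miR-126a-5p, at -0.11. Of smooth muscle, miR-143-3p was at -0.17 and miR-145a-5p at -0.06. Choroid plexus names summed to between 233 and 303 CPM in APP/PS1 and between 180 and 264 CPM in WT, from -0.25 for miR-449a-5p to 0.19 for miR-211-5p. The striated muscle and liver names summed to between 458 and 636 CPM in APP/PS1 and between 349 and 622 CPM in WT. All 5 were above 0, from 0.02 for miR-133b-3p to 0.47 for miR-122-5p, which was higher in every APP/PS1 library and was at 0.30 without APP/PS1 replicate 1. The other members had overlapping groups, and the median of 0.15 became -0.05 without WT replicate 1.

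The Dlk1-Dio3 locus held the most members of any list. Its placed miRNAs came from 50 hairpins between chr12:109563692 and 109747960, and 91 names were tested. Of these 65 were above 0 and 26 below, with a median of 0.08 beside 0.02 for all names. At an unadjusted p under 0.05 there were 3 higher and 1 lower, against 1.15% and 1.39% of all names, and 7 higher and 2 lower names had groups without overlap, against 4.16% and 3% of all names. The extremes were miR-376a-3p and miR-3070-5p. miR-487b-5p, at 0.91, had at most 2.99 CPM in a library and overlapping groups. miR-381-3p, 1 of the lower names without overlap, was at -0.12. Leaving out 1 library at a time put the median of the locus between -0.01 and 0.07, in fits where the median of all names lay between -0.03 and -0.01, and the lowest came without WT replicate 2.

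**Figure D5:**
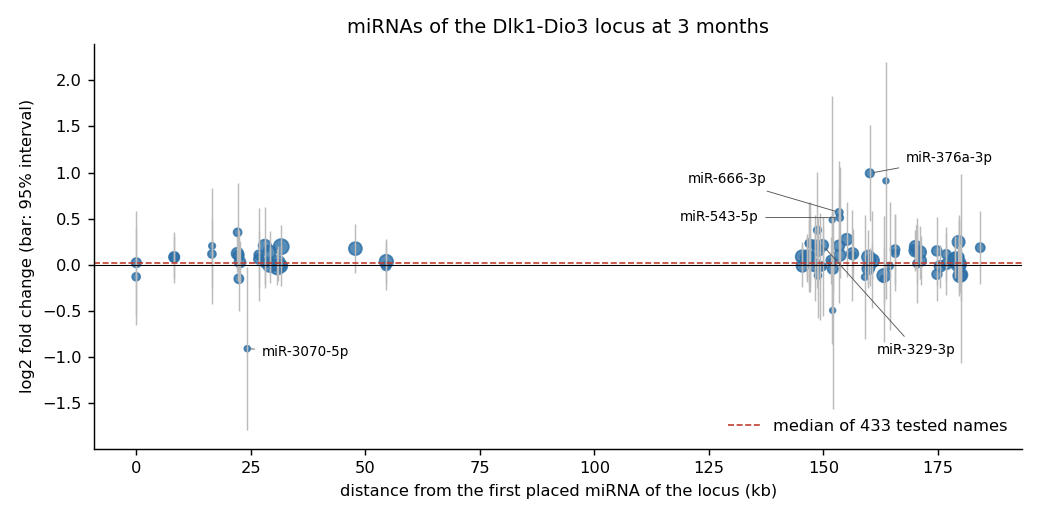
Log2 fold change of APP/PS1 against WT at 3 months, with 95% intervals as bars, for the 88 placed miRNAs of the Dlk1-Dio3 locus over their distance in kb from the first of them. Larger points have higher mean CPM, and the dashed line is the median of all 433 tested names. Most points lie slightly above 0 along the whole locus, and miR-376a-3p and miR-3070-5p lie farthest from the rest of those labelled.

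A second large cluster, in an intron of Sfmbt2, gave values on the other side. Of its 26 tested names, which rest on 17 distinct measurements because of shared sequences, 4 were above 0 and 22 below, with a median of -0.19. Names with shared counts enter these numbers more than once. Apart from miR-467a-5p and miR-467b-5p, the names had means of at most 13.5 CPM in either genotype. The median of all tested names under 10 CPM was -0.06. Values ran from -0.69 for miR-669o-5p to 0.25 for miR-467d-5p. No name of this cluster had groups without overlap or an unadjusted p under 0.05 in edgeR (0 of 26 each, against 7.16% and 2.54% of all names). The CPM values of the 26 names summed to 325 to 401 in APP/PS1 and 298 to 458 in WT, so the ranges of the genotypes overlapped. Counts shared between names enter this sum more than once, so it is not the level of the cluster. With 1 library left out, the median stayed between -0.40 and -0.12.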

How the data were processed

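Per the labels' protocols, flash-frozen brain gave RNA by Trizol, and TruSeq small RNA libraries were sequenced single-end on a HiSeq 2500. Per the submitters' processing notes, cutadapt 1.14 trimmed adapters and kept reads of 17 to 35 bases, Trimmomatic 0.36 removed reads of quality under 20, and BLAST 2.6.0 removed other RNA families. The notes list miRBase 21.0 for known miRNAs and miRDeep2 2.0.0.8 for predicted ones. The authors deposited raw counts for 1927 mature miRNA names in 24 libraries. Columns of no sample numbered 0. As for the counting tool, the genome build and reads that match several names, these were not given in the sources used here.

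filterByExpr of edgeR, with a minimum count of 10 and a minimum total of 15, kept 433 names, 9 of them predicted. Names left out held 0.0110% to 0.0130% of counts at 3 months. There were 15 sets of identical counts, covering 32 names, so 416 measurements were not identical. Names counted almost alike, such as miR-101a-3p and miR-101c, still stand apart among these 416. Counts were scaled with TMM (factors 0.948 to 1.016) and fitted in edgeR 4.0.16 (R 4.3.3, limma 3.58.1) by quasi-likelihood, with 8 group means over 24 libraries, 16 residual and 4.64 prior degrees of freedom and a biological coefficient of variation of 18.6%. Benjamini-Hochberg adjustment covered all 433 names, with a threshold of 0.05. Standard errors are the absolute log2 fold change over the root of F. The script was tested on simulated data. Replicates are separate mice, and no pair of libraries was identical.

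Named were the 12 higher and 12 lower miRNAs with the smallest p, their other arms, the Alzheimer panel, the miR-29 and miR-376 families, the 5 most counted, tested cell type markers, and the extremes of each list. The Htr2c miRNAs, those of the library axis, miR-379-5p, miR-381-3p, miR-487b-5p, miR-6481, seed relatives and the names under other observations were added after values were seen. Members and lists were chosen with earlier results of these data known. Of the tested names 358 matched a RefSeq mature sequence, and host genes were read from GENCODE on the same assembly. Alternatives were other scaling, no filter, DESeq2 1.42.0, the 6 libraries alone, a replicate block, single names per identical set, robust estimation and each library left out. mRNA data were not analysed here.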

Additional observations from a re-analysis of the deposited data

How the results depend on the processing

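The count of 0 miRNAs passing at 3 months was also 0 in every alternative except the one with no filter on low counts, where edgeR gave 2 of 1125 names, miR-376a-3p and miR-10a-5p, and 8 for the difference at 3 months against the other ages. That fit had infinite prior degrees of freedom, so each name took its spread from the trend alone. At an unadjusted p under 0.05 the 11 names became 23 with no filter, and between 4 (without APP/PS1 replicate 2) and 15 (without WT replicate 3) with 1 library left out, and 7 with DESeq2. For the age test the 14 names became 33 with no filter and between 10 and 20 with 1 library left out. Same-numbered libraries deviated from their group means with r of 0.04, -0.46 and -0.08. Pairs of different numbers across the genotypes ran from -0.38 to 0.47. These values are too few to show whether libraries of the same number share more than a name. With the replicate block 0 miRNAs passed, the smallest adjusted p was 0.562 in edgeR, and 9 had an unadjusted p under 0.05. The adjusted p of miR-376a-3p ran from 0.00614 to 0.996 over the alternatives. The median of all names was 0.02 with TMM and 0.01 with library totals alone. With 1 library left out it lay between -0.03 and -0.01, so part of a change in those fits is common to all names.

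Of 1101 values recomputed for 79 named miRNAs under 14 alternatives, 1053 kept direction and side of the threshold, and 46 of 24 miRNAs turned direction. Of 335 values for the 24 miRNAs with the smallest p, 0 turned. These 24 were picked by their p in the same libraries, which favours a stable sign, so this count is no support for them. miR-34a-5p was at -0.0029 in the 3-month libraries alone, and miR-125b-5p at 0.0021 with no filter. With 1 library left out, the lowest and highest values of those that turned were -0.065 and 0.098 for miR-9-5p, -0.058 and 0.049 for miR-29c-3p, -0.24 and 0.35 for miR-34a-5p, -0.019 and 0.10 for miR-124-3p, -0.16 and 0.048 for miR-132-3p, -0.051 and 0.067 for miR-142a-5p, -0.36 and 0.0069 for miR-146a-5p, -0.19 and 0.81 for miR-206-3p, -0.032 and 0.014 for miR-212-3p, -0.31 and 0.026 for miR-376c-5p, -0.16 and 0.38 for miR-7a-5p, -0.071 and 0.035 for miR-153-3p, -0.32 and 0.022 for miR-338-3p, -0.16 and 0.27 for miR-451a, -0.0047 and 0.16 for miR-126a-3p, -0.33 and 0.016 for miR-143-3p, -0.18 and 0.31 for miR-211-5p, -0.54 and 0.054 for miR-449a-5p, -0.10 and 0.15 for miR-133b-3p, -0.14 and 0.057 for miR-99a-5p, -0.010 and 0.10 for miR-101b-3p, -0.60 and 0.23 for miR-1264-3p and -0.40 and 0.052 for miR-195a-5p.

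Of 210 list medians recomputed, 7 moved by more than the spread, among them the erythrocyte list at -0.31 without APP/PS1 replicate 1. The cause was not tested. Depth limits the 151 names under 10 CPM.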

Other observations

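Of the names whose 3 APP/PS1 and 3 WT libraries did not overlap (7.16% of those tested), several have not been described. They were chosen after their values were seen, and each had an unadjusted p above 0.05 in edgeR. miR-135a-5p, a brain miRNA, was at 298, 326 and 270 CPM in APP/PS1 and at 368, 331 and 435 CPM in WT, a log2 fold change of -0.34 (SE 0.22). miR-135b-3p, from a related hairpin, was at -0.55 but had at most 3.59 CPM in a library. Higher in every APP/PS1 library were miR-674-3p at 0.17, miR-708-3p at 0.13 and miR-148b-5p at 0.21. Without WT replicate 3 miR-674-3p was at 0.11 and miR-708-3p at 0.050, and without APP/PS1 replicate 1 miR-148b-5p was at 0.085.

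Of the 9 predicted miRNAs tested, several followed a known name almost exactly over the 24 libraries. Predicted miRNA number 250 followed miR-221-3p and number 272 followed miR-3552, an Htr2c miRNA, each with a Pearson's r that rounds to 1.00, so neither is a separate measurement. Predicted miRNA number 282 had no such partner, its closest being miR-676-5p with r = 0.55.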
